A study of Mus musculus with 6 samples.

Results

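The cluster of miR-532, miR-188, miR-362, miR-501 and miR-500 is a group of miRNA hairpins on the mouse X chromosome, within the gene Clcn5. The 7 assays described here, miR-532-5p, miR-532-3p, miR-188-5p, miR-362-5p, miR-362-3p, miR-501-3p and miR-500, were taken by name from a panel of 596 TaqMan RT-PCR assays of miRNAs. All 7 names were on the panel, 6 in its first block of rows (335 assays) and miR-362-5p in its second block (261 assays). The panel also held 2 further assays named after these hairpins, miR-188-3p and miR-501, which are given beside the others.

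Macrophages were grown for 7 days from bone marrow of male mice, 6 to 8 weeks old, in medium conditioned by L929 cells, which supply macrophage colony-stimulating factor. Wild type (WT) cells were from 3 mice of genotype LysM-Cre/Dicerwt/wt/Apoe-/-, and knockout (KO) cells from 3 mice of genotype LysM-Cre/Dicerflox/flox/Apoe-/-. Apoe deficiency and the myeloid Cre of LysM were thus common to both groups, and the floxed Dicer gene set them apart. Dicer mRNA was not on the panel, and how completely the gene was deleted in these cultures is not given in the sources used here.

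MiRNA hairpins that lie in an intron are usually cut out of the transcript of the host gene by the nuclease Drosha. Dicer then removes the loop of each hairpin and leaves a duplex of a 5p and a 3p arm, of which either can be loaded into an Argonaute protein as the mature miRNA. The host gene Clcn5 encodes a chloride/proton exchanger of endosomes. Products of a shared transcript begin with equal numbers of hairpins, while their mature levels also depend on how each hairpin is cut and on how long each arm lasts.

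RefSeq entries for 5 hairpins (build GRCm38.p6) all lay within the span of Clcn5 and on its strand, the minus strand. In the order of transcription they were mir-532 at chrX:7248402-7248497, mir-188 at chrX:7247989-7248056, mir-362 at chrX:7241982-7242046, mir-501 at chrX:7241243-7241351 and mir-500 at chrX:7237683-7237774, a stretch of 10815 bases. The mir-188 hairpin began 441 bases after the start of mir-532, with 345 bases between them, and mir-362 and mir-501 were 630 bases apart. RefSeq lists 2 starts of Clcn5, and the cluster lay between them, 70.9 kb downstream of the first and 49.0 kb upstream of the second. The hairpins that Dicer cuts are shown from 5′ to 3′ for the 4 with both arms listed, with the mature arms in capitals and the flanks and loop in lower case.

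mir-188: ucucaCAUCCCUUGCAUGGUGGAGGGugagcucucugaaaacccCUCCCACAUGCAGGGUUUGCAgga
mir-362: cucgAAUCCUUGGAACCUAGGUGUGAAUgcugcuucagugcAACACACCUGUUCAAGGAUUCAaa
mir-501: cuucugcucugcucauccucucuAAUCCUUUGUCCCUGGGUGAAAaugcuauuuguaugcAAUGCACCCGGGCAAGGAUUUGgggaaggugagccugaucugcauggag
mir-500: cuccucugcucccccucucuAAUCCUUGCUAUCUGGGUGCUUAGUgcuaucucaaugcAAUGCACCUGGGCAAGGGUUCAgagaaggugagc

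The arms were separated by 18 bases in mir-188, 13 in mir-362, 15 in mir-501 and 13 in mir-500. The mature products are printed next with the seed (bases 2 to 8), the part that pairs with target mRNAs, in capitals, because shared seeds show which members could recognise the same sites. RefSeq matched 5 of the 7 names. The name miR-500 carries no arm in the data, so both arms of mir-500 are shown, and miR-532-5p is named only.

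miR-501-3p: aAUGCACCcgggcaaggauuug
miR-500-3p: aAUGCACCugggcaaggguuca
miR-362-5p: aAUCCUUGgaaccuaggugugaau
miR-500-5p: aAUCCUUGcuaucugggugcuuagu
miR-362-3p: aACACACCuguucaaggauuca
miR-188-5p: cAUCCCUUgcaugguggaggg
miR-532-3p: cCUCCCACacccaaggcuugca

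The seed of miR-501-3p was identical to that of miR-500-3p, and the seed of miR-362-5p to that of miR-500-5p. Over their whole length miR-501-3p and miR-500-3p shared 18 of 22 bases and differed, counted from the 5′ end with the base of miR-501-3p first, by C9U, A18G, U21C and G22A. The seeds of miR-362-3p, miR-188-5p and miR-532-3p were shared with no other listed arm of the cluster. How far each assay discriminates between such near copies was not tested.

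Levels are given as the threshold cycle (Ct), which is 1 cycle later for each loss of template by a factor of 2, and as log2 relative abundance, the mean Ct of the 5 endogenous small RNA controls of the same block minus the Ct of the assay. Wells without amplification are listed at Ct 40, and Ct values from 35 upwards were set to this ceiling. Each block has its own U6, U87, Y1, snoRNA135 and snoRNA202. The mean control Ct of the first block was 20.2 ± 1.02 in WT and 20.8 ± 1.82 in KO (SD, 3 samples each; two-sided exact permutation p = 0.8), with KO replicate 1 latest at 22.8. Relative to the mean of the 5, around which they balance by construction, single controls differed between the groups by -0.18 to 0.28 on the log2 scale. All 6 assays of the list of macrophage and other haematopoietic miRNAs, among them miR-223 and miR-142-3p, were below the ceiling in every sample, and the 1 liver assay, miR-122, amplified in none. Assays of other cell types were also below the ceiling in all WT samples: 4 of 4 mesenchymal, 5 of 6 epithelial, 2 of 2 endothelial, 2 of 3 neural and the 1 lymphocyte assay, but 0 of 2 muscle assays and not the 1 erythroid assay. The mesenchymal assays were at Ct 22.6 to 26.5 in WT replicates 1 and 2, at 27.9 to 29.6 in WT replicate 3 and at 23.6 to 31.8 in KO. The share of other cell types in these results was not tested.

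Of the 7 cluster assays, 6 fell in KO macrophages and miR-188-5p did not pass the test. All 7 were below the ceiling in the 3 WT samples and 6 of them in all 6 samples, while miR-501-3p entered the test through WT alone. The 6 that fell did so at an adjusted p under 0.05 (limma, two-sided, Benjamini-Hochberg adjustment over 282 tested assays), beside 37.2% of all tested assays called lower. Their KO samples all lay below their WT samples, as in 59.9% of the tested assays. The median difference of the 7, KO minus WT, was -1.98 on the log2 scale, or 3.93-fold lower, beside -1.91 over all tested assays, and 5 of the 7 lay between -1.65 and -2.33. In RNA of whole cultures, fewer cells that hold a miRNA and less of it per cell cannot be told apart. The calls were close to the threshold: without WT replicate 1, 2 or 3 or KO replicate 2, 0 of the 7 passed, and 2 or 3 assays of the whole panel were called lower. With the replicate number as a block 4 of the 7 passed, beside 118 of the 282 tested assays. The mean of the assays of the block below the ceiling in all 6 samples was also used as reference in place of the controls. With it 0 of the 7 passed either, and miR-500 and miR-532-5p were at 0.05 and 0.24. miR-362-3p and miR-532-3p were then at -0.09 and -0.15, and miR-501-3p at -3.58. miR-362-5p was at -1.68, but it was scaled to the mean of the second block, a different reference from that of the other members.

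**Figure D1:**
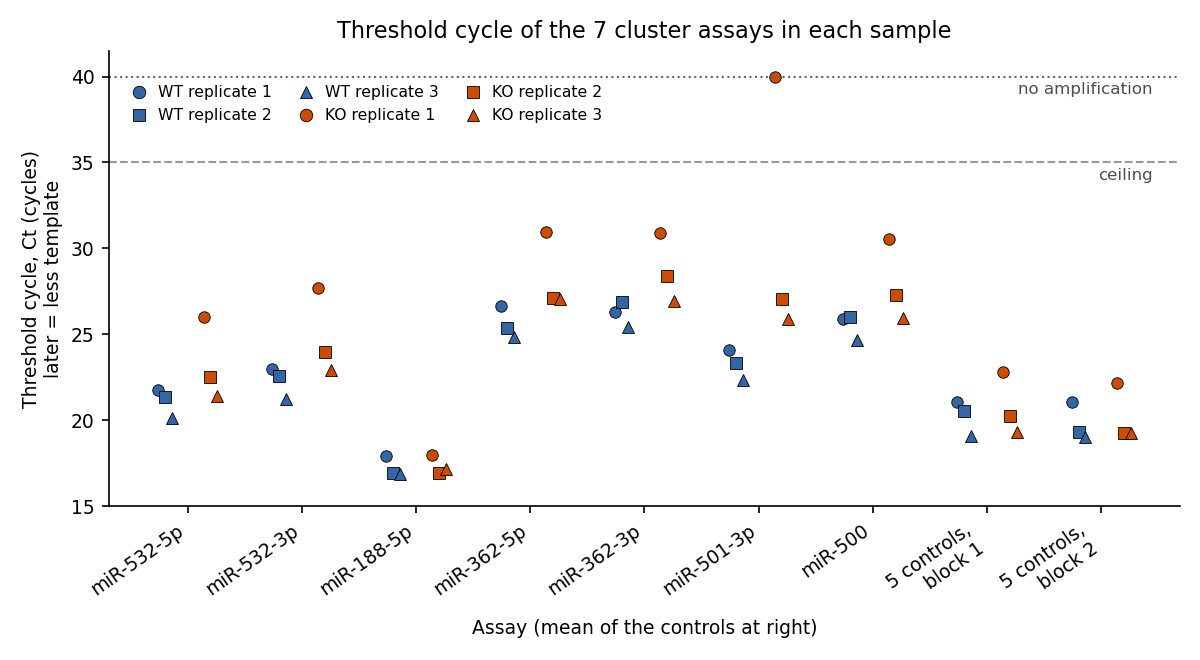
Threshold cycle (Ct, cycles, later meaning less template) of the 7 cluster assays and the mean of the 5 controls of each block; blue marks are the 3 WT and orange marks the 3 KO samples, with 1 shape per replicate number. The miR-188-5p marks lie between 16.9 and 18.0 in both groups, and the miR-501-3p well of KO replicate 1 lies at 40, without amplification.

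The mir-532 hairpin opens the cluster and gave its earliest assays after miR-188-5p. For miR-532-5p, which is known to repress the transcription factor RUNX3, Ct in WT was 21.7, 21.4 and 20.2, and Ct in KO replicates 1, 2 and 3 was 26.0, 22.5 and 21.4. Relative to the controls, which were also late in KO replicate 1, these were -0.68, -0.81 and -1.06 in WT and -3.15, -2.27 and -2.07 in KO, so that the groups did not overlap and KO replicate 1 was lowest. The difference was -1.65 ± 0.53 (log2, SE, n = 3 per group; 3.13-fold lower; limma, adjusted p = 0.0473).

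The other arm, miR-532-3p, was at a relative abundance of -1.91, -2.02 and -2.12 in WT, the narrowest WT spread of the falling members (SD 0.106), and at -4.85, -3.70 and -3.60 in KO. It fell by 2.03 ± 0.55 on the log2 scale (SE, n = 3 per group; 4.09-fold; limma, adjusted p = 0.034), and all KO samples were again below all WT samples. With the replicate number as a block the adjusted p (limma) was 0.0438 for miR-532-3p and 0.0535 for miR-532-5p, which then did not pass. Without KO replicate 3 miR-532-5p also missed the threshold (limma, adjusted p = 0.0503).

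The ratio of the arms of mir-532 did not overlap between groups, with a difference smaller than that of either arm. The log2 level of miR-532-3p minus that of miR-532-5p was -1.23, -1.22 and -1.06 in WT, against -1.70, -1.43 and -1.53 in KO. The change in this ratio, KO minus WT, was -0.39, at the smallest p that 3 samples against 3 can give (exact permutation p = 0.1, two-sided; 0.191 adjusted over the 21 pairs of members).

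The mir-362 hairpin gave both of its arms at similar levels, measured in different blocks. miR-362-5p, known to repress the deubiquitinase CYLD of the NF-kappaB pathway, crossed the threshold at Ct 26.7, 25.3 and 24.8 in WT, and at 31.0, 27.1 and 27.0 in KO. Its relative abundance was -5.60, -6.04 and -5.83 in WT, compared with -8.83, -7.86 and -7.76 in KO, without overlap. It fell by 2.33 ± 0.53 on the log2 scale (SE, n = 3 per group; 5.02-fold; limma, adjusted p = 0.0312).

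The WT samples had miR-362-3p at Ct 26.3, 26.9 and 25.4, the KO samples at 30.9, 28.4 and 27.0. After scaling it was at -5.22, -6.35 and -6.31 in WT and at -8.08, -8.10 and -7.62 in KO, so the KO samples were closer to each other than for any other falling member (SD 0.273). It fell 3.93-fold (log2 -1.98 ± 0.55, SE, n = 3 per group; limma, adjusted p = 0.034). The difference between the arms of mir-362 in their response, 0.35 on the log2 scale, was within the spread of the samples (exact permutation p = 0.5, two-sided; 0.553 adjusted over the 21 pairs). Between samples of the same replicate number it was 0.364, 0.069 and 0.618.

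miR-500, from the last hairpin of the cluster, appeared at Ct 25.9, 26.0 and 24.7 in WT, later in KO at 30.5, 27.3 and 26.0. Its relative abundance was -4.81, -5.47 and -5.57 in WT, against -7.69, -7.04 and -6.64 in KO, all KO samples below all WT samples. It fell 3.58-fold (log2 -1.84 ± 0.54, SE, n = 3 per group; limma, adjusted p = 0.0402, 0.0535 with the replicate block). The 5 members of mir-532, mir-362 and mir-500 thus fell between 3.13-fold and 5.02-fold.

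miR-501-3p, studied in neurons as a regulator of a glutamate receptor subunit at synapses, had the lowest difference of the cluster. Its Ct values were 24.1, 23.4 and 22.4 in WT, and 40, 27.1 and 25.9 in KO replicates 1, 2 and 3. Relative to the controls it was at -3.05, -2.81 and -3.26 in WT and at -6.79 and -6.58 in KO replicates 2 and 3, with no amplification in KO replicate 1. In that sample every other member amplified, at Ct 31.0 or earlier, and the cause of the blank well was not tested.

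With the blank well set to the ceiling, miR-501-3p was at least 44.2-fold lower (log2 -5.47 ± 1.47, SE, n = 3 per group; limma, adjusted p = 0.034), a bound that holds only if the blank well is an absence. The value of KO replicate 1 is then the ceiling scaled by the controls, so this SE and p do not measure the spread in KO. The value depended on the ceiling chosen: it was 22.1-fold with the ceiling at Ct 32 and 140-fold at Ct 40 (limma, adjusted p = 0.0143 and 0.0919). There were 5 tested assays with a lower difference. Without KO replicate 1 the fall was 12.5-fold, from samples in which the miRNA amplified (log2 -3.64 ± 0.36, SE, n = 3 WT and 2 KO; limma, adjusted p = 0.0134), and 18 of 293 assays tested in that fit had a lower difference.

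Set against miR-500, whose 3p arm is its near copy, miR-501-3p had the higher relative abundance in WT and stood close to it in KO replicates 2 and 3. The log2 level of miR-500 minus that of miR-501-3p was -1.76, -2.66 and -2.31 in WT, compared with -0.257 and -0.066 in KO replicates 2 and 3. With the ceiling value of KO replicate 1, where the gap was at least 4.48, the groups did not overlap (exact permutation p = 0.1, two-sided, the smallest possible; 0.191 adjusted over the 21 pairs). The same held for all 6 pairs that contain miR-501-3p.

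**Figure D2:**
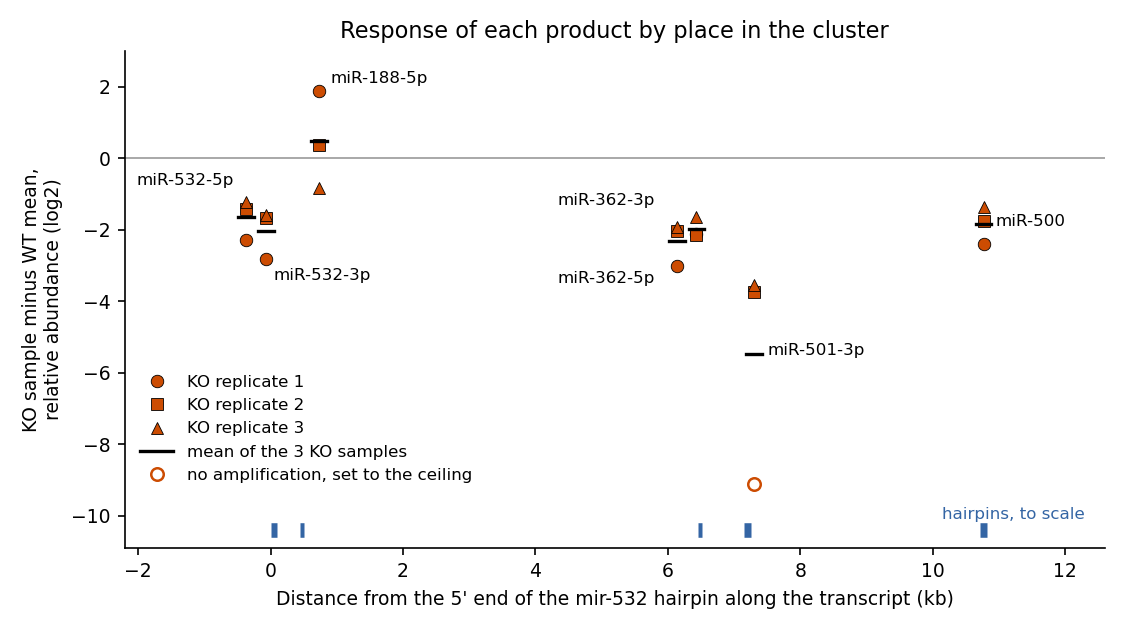
Relative abundance of each product in each KO sample minus its WT mean (log2), placed by distance in kb from the 5′ end of the mir-532 hairpin along the transcript; marks are set sideways by up to 0.5 kb so that they can be told apart, black bars are means of the 3 KO samples, and blue blocks are the hairpins to scale. Of the products, 5 lie between -1.22 and -3.01, miR-501-3p lies below them and miR-188-5p between -0.84 and 1.88.

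miR-188-5p, known for shifting bone marrow stromal cells from bone towards fat formation, stood apart from the other members although its hairpin lies next to mir-532. The WT samples gave Ct 17.9, 17.0 and 16.9, the KO samples 18.0, 16.9 and 17.2, so the groups overlapped. Replicate 1 was the latest in each group, as it was for the mean control of the first block. The mean Ct was 17.3 ± 0.58 in WT and 17.4 ± 0.54 in KO (SD, n = 3 per group). The relative abundance was 3.14, 3.60 and 2.21 in WT, compared with 4.87, 3.34 and 2.14 in KO, highest in KO replicate 1, where the controls were latest.

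The difference of miR-188-5p was 0.47 ± 0.82 (log2, SE, n = 3 per group; limma, adjusted p = 0.669). Its 95% interval, from -1.47 to 2.40, included 0, and the median of all tested assays, -1.91, lay outside it. A difference above that of miR-188-5p was seen in 11 of the 282 tested assays. The sign depended on the reference and on KO replicate 1: the difference was -0.107 on unscaled Ct and -0.242 without that sample. It was 2.35 with the mean of the assays below the ceiling throughout as reference.

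The Ct of miR-188-5p varied by 1.08 cycles over the 6 samples. This was the smallest range among the 201 assays below the ceiling in all 6 samples, whose median range was 6.06 cycles, and it was smaller than that of every control, 2.82 to 4.48 cycles. The other members below the ceiling throughout ranged over 5.51 to 6.46 cycles. Between KO replicates 1 and 3 the mean control of the first block differed by 3.51 cycles, and miR-188-5p by 0.782. Whether this signal comes from the mature miRNA was not tested. Next in range, and chosen after their values were seen, came miR-1274a with 1.11 cycles and miR-465C-5P with 1.16 cycles.

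**Figure D3:**
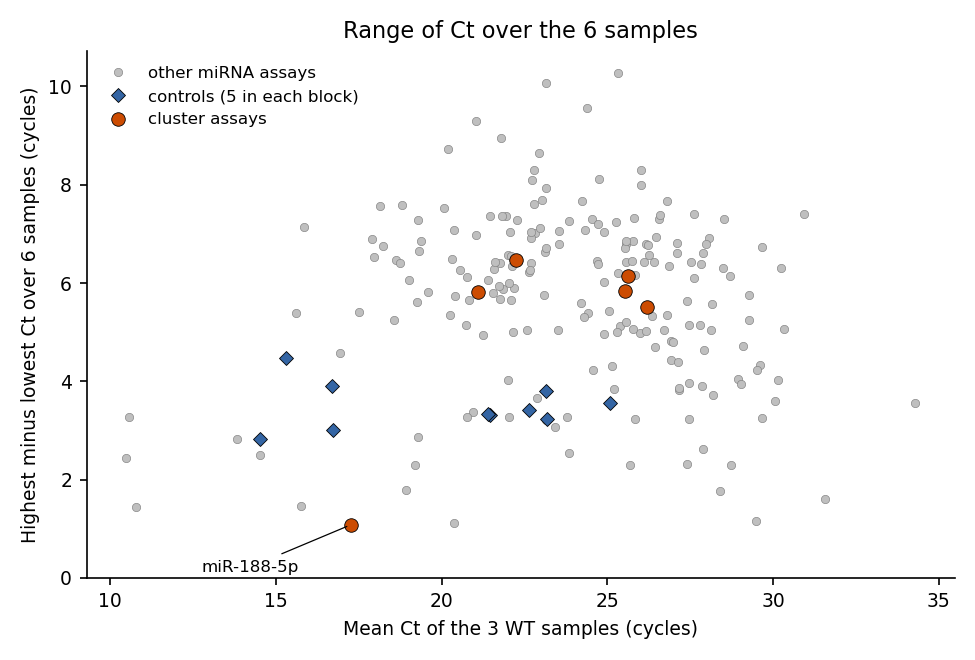
Highest minus lowest Ct over the 6 samples (cycles) against the mean Ct of the 3 WT samples (cycles) for the 201 miRNA assays below the ceiling throughout (grey), the 5 controls of each block (blue) and the 6 cluster assays among them (orange). miR-188-5p, at 1.08 cycles, lies below all of them, and the other cluster assays lie between 5.51 and 6.46.

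The response of miR-188-5p was set against each of the other 6 members within the same samples. The log2 level of miR-188-5p minus that of miR-532-3p was 5.04, 5.62 and 4.33 in WT, against 9.71, 7.04 and 5.74 in KO, so the gap was wider by 2.50 and the groups did not overlap (exact permutation p = 0.1, two-sided; 0.191 adjusted over the 21 pairs). With miR-362-5p and miR-501-3p the groups did not overlap either. With miR-532-5p, miR-362-3p and miR-500 the gap was wider by 2.11, 2.44 and 2.31 on average and the groups overlapped (exact permutation p = 0.2, two-sided, for each; 0.28 adjusted). Between samples of the same replicate number, a comparison chosen after the values were seen, the gap to each of the other 6 members was wider in KO for all 3 numbers, by 4.60, 1.49 and 1.24 for miR-362-3p. The exact sign-flip permutation p over 3 such pairs was 0.25, the smallest possible. Of all 21 pairs of members, 11 were without overlap between groups and 19 had the same sign in every replicate number, and no pair could pass the threshold, since 3 samples against 3 cannot give a p under 0.1. The pairs share members, and only 3 of the 11 held neither miR-188-5p nor miR-501-3p. Pairs with miR-362-5p also carry the difference between the controls of both blocks, and on unscaled Ct 9 pairs were without overlap. The shares among pairs of all tested assays were not computed, so whether these counts are unusual was not tested.

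**Figure D4:**
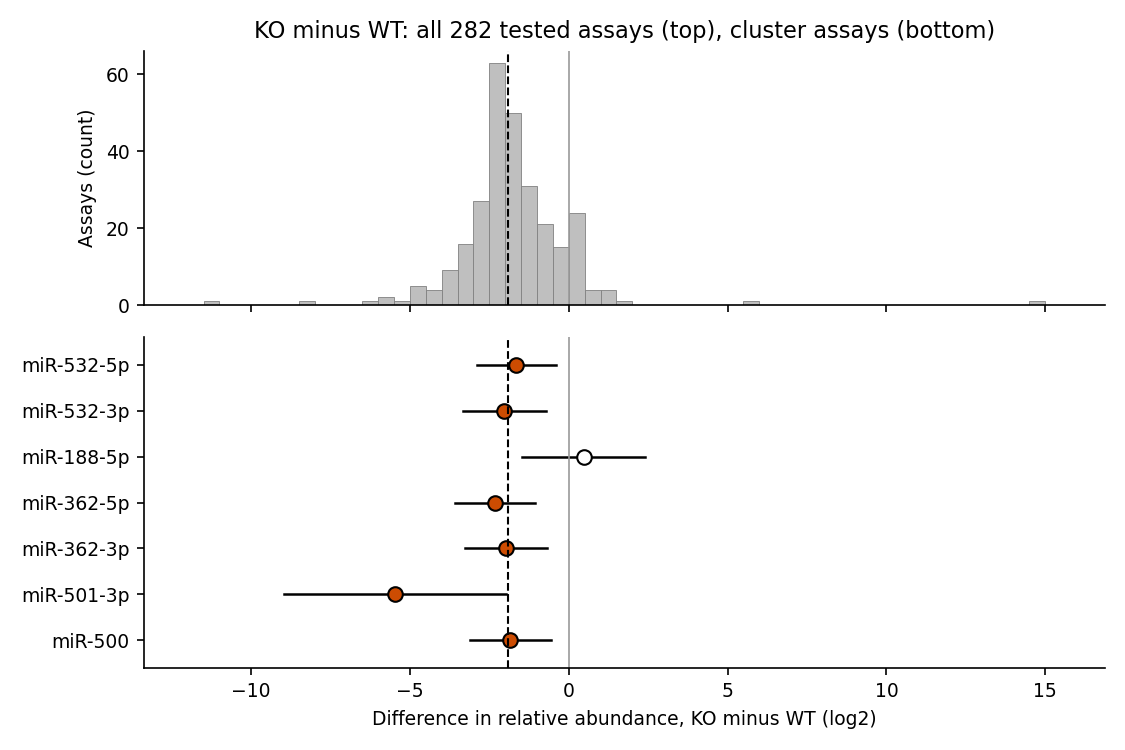
Difference in log2 relative abundance, KO minus WT, as a histogram of all 282 tested assays (top) and for each cluster assay with its 95% interval from the limma fit (bottom); filled marks passed the adjusted threshold, the open mark did not, and the dashed line is the median of all tested assays, -1.91. The interval of miR-188-5p spans 0, and miR-501-3p lies furthest to the left.

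The further assays named after these hairpins gave little or no signal. miR-188-3p was at Ct 40 in all 6 samples, while miR-188-5p, assigned to the same hairpin, was the earliest assay of the cluster. The assay named miR-501, with no arm given, was at Ct 31.0 in WT replicate 3 and at Ct 40 in the other 5 samples. Neither was tested.

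In WT the order of relative abundance was miR-188-5p (2.98 ± 0.71, SD, n = 3), miR-532-5p (-0.85 ± 0.19), miR-532-3p (-2.02 ± 0.11), miR-501-3p (-3.04 ± 0.23), miR-500 (-5.28 ± 0.41), miR-362-5p (-5.82 ± 0.22) and miR-362-3p (-5.96 ± 0.64). Neighbours down to miR-362-5p had no overlapping samples, while miR-362-5p and miR-362-3p overlapped. The lowest miR-500 sample, at -5.57, was barely above the highest miR-362-5p sample, at -5.60. These neighbours were scaled to the controls of different blocks, and their unscaled Ct values overlapped. In KO miR-188-5p, miR-532-5p and miR-532-3p kept the first places, at 3.45 ± 1.37, -2.49 ± 0.57 and -4.05 ± 0.69, and miR-500, miR-362-3p and miR-362-5p were at -7.12 ± 0.53, -7.93 ± 0.27 and -8.15 ± 0.59, with overlapping samples between these neighbours. The KO mean of miR-501-3p is a bound, and its KO replicates 2 and 3 lay at the level of miR-500. These levels assume equal efficiency of the assays, which was not measured. The place of miR-188-5p also assumes that its signal comes from the mature miRNA, which was not tested.

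The authors' deposited table of fold changes, KO over WT, gave 0.345 for miR-532-5p, 0.270 for miR-532-3p, 0.210 for miR-362-5p, 0.248 for miR-362-3p and 0.292 for miR-500. For miR-188-5p the authors' deposited table gave 1.86, a ratio of arithmetic means in which KO replicate 1 counted with a deposited relative quantity of 4.11, beside 1.34 and 0.556 in KO replicates 2 and 3. For miR-501-3p the authors' deposited table gave 0.0542, or 18.5-fold lower. This is again a ratio of arithmetic means, in which KO replicate 1 counted with 6.3e-05, beside 0.0779 and 0.0858 in KO replicates 2 and 3. It is thus a different measure from the bound given above, which averages on the log2 scale. For miR-188-3p, without amplification in any sample, the authors' deposited table gave 2.39, which holds the Ct values of the reference assays alone. For miR-501 the authors' deposited table gave 0.0212, which rests on the 1 WT well that amplified.

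Other miRNAs of the X chromosome were set beside the cluster from a list of 63 assays, of which 25 were tested. Of these 25, 11 fell (44.0%, beside 37.2% of all tested assays), 14 did not pass, and the median was -1.91, the same as over all tested assays. miR-98, a let-7 relative, was at least 2209-fold lower, with no KO sample amplified (limma, adjusted p = 0.00222), and miR-351 at least 18.7-fold lower, with 2 KO samples below the ceiling (limma, adjusted p = 0.0311). Both entered the test through WT alone, and the KO values of miR-98 are the ceiling scaled by the controls, so its p does not measure its spread in KO. Others of the 11 also entered through WT alone, with 2 KO samples below the ceiling. When only assays below the ceiling in all 6 samples were tested, 10 of 16 of the list fell, beside 114 of 201 in total. At the other end miR-463# was at 0.09 and miR-465C-5P at 0.33 on the log2 scale (limma, adjusted p = 0.947 and 0.802). Without WT replicate 1, 2 or 3 or KO replicate 2, 1 of the list's tested assays fell.

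The mean profile of the 6 cluster assays measured in all samples, each centred on its WT mean, was 0.31, -0.02 and -0.29 in WT, compared with -1.80, -1.45 and -1.43 in KO on the log2 scale. The 5 tested assays nearest to it over the 6 samples were miR-148a, miR-30b, miR-15b, miR-15a and miR-142-3p, with root mean square differences of 0.167, 0.167, 0.208, 0.287 and 0.303. Their differences, KO minus WT, lay between -1.89 for miR-142-3p and -1.26 for miR-15a. Of the 5, miR-15a did not pass the test (limma, adjusted p = 0.0833). With miR-188-5p left out of the profile, a choice made after its values were seen, the nearest were miR-30e, miR-30a, miR-328, miR-100 and miR-106b.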

How the data were processed

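MicroRNAs were measured by TaqMan RT-PCR in 3 WT and 3 KO samples; per the labels' protocols, mirVana kits gave the RNA, and TaqMan kits were used for reverse transcription and preamplification. The authors deposited Ct scores, relative quantities as a ratio to the WT samples, and KO over WT ratios; no instrument or software is given in the sources used here. For the cluster assays the deposited ratios equal 2 to the power of minus Ct after subtraction of the mean of U6, snoRNA135 and snoRNA202, scaled so that the geometric mean over WT is 1. The Ct scores were used for all tests. An assay was tested if below Ct 35 in all 3 samples of at least 1 group; 220 assays amplified in none of the 6 samples. The comparison of WT and KO used lmFit and eBayes of limma 3.58.1 (R 4.3.3), checked for recovery of set differences on simulated data with independent errors of equal spread. That check does not cover the unequal spreads, the ceiling values or the errors shared through the controls in these data. The number of samples limits the precision.

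Pairs of members were compared by exact permutation tests over samples. Sequences were read with pandas 2.3.3 in Python 3.11.15, figures drawn with matplotlib 3.10.9. The members and lists were chosen with earlier results of these data known. Named were the members, the other assays of their hairpins, miR-223 and miR-142-3p, the controls, the X-linked assays with the 2 smallest and 2 largest adjusted p values, and the 5 nearest profiles; marker assays and assays named as chosen after their values were seen come on top of this rule.

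Groups share replicate numbers in the labels. Deviations from group means of same-number samples correlated across assays at 0.228, 0.283 and 0.267, which meets the bar set for pairing (each over 0.1), although no label states a shared batch. The fits and permutation tests reported first do not use the numbers; values with the replicate block are given where they changed a call. Alternatives covered the reference, the ceiling, the filter, missing wells, the variance model, the pairing and each sample left out.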

Additional observations from a re-analysis of the deposited data

How the results depend on the processing

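Against 18 alternatives, miR-362-3p, miR-362-5p and miR-532-3p kept a negative difference in all, and miR-501-3p in the 17 that could be run for it (it was not below the ceiling in all 6 samples). Changes of the ceiling, filter, missing wells and variance model left the differences of miR-362-3p, miR-362-5p and miR-532-3p as they were by construction. These assays each missed the adjusted threshold in 7 of the 18 alternatives, and miR-501-3p missed it in 9 of the 17. The global mean as reference is the mean of the assays of a block below the ceiling in all 6 samples, and removes a shift common to that block. With it 2 assays were lower, 0 members passed and 1 X-linked assay was lower. The median of all tested assays moved from -1.91 to -0.20, and the members' median was -0.0892. miR-500 and miR-532-5p changed sign to 0.0472 and 0.240, miR-532-3p was at -0.146 and miR-188-5p at 2.35. miR-362-5p, of the second block, was still at -1.68 and miR-501-3p at -3.58 (limma, adjusted p = 0.191 and 0.249). Without a reference, and without a filter on late assays, 2 assays were lower, 0 of them members and 1 X-linked; on unscaled Ct miR-188-5p was at -0.107. With the ceiling at Ct 40, 7 X-linked assays and 4 members were lower. With the replicate block 118 assays and 4 members were lower, miR-500 and miR-532-5p being lost; 92 of the 105 assays lower without the block were lower with it, and it changed no other call of a member. Compared within replicate numbers, an alternative chosen after seeing the data, 19 of 21 pairs of members differed with 1 sign, beside 11 without overlap between groups. The shares among pairs of all tested assays were not computed. Leaving out 1 sample at a time gave 2 to 112 lower assays, 0 to 6 members, 1 to 10 X-linked assays and -0.242 to 1.12 for miR-188-5p, lowest without KO replicate 1. With the floor set after scaling miR-501-3p did not pass (limma, adjusted p = 0.0692), nor with the ceiling at Ct 40 (0.0919). Why single calls were lost was not tested.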
